A study of Mus musculus with 7 samples.

Results

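The genes described here encode the subunits of the glutamate and GABA receptors. They were chosen by symbol, as the rows of the count table named *Gria*, *Grin*, *Grik*, *Grid*, *Grm*, *Gabr* or *Gabbr* with a subunit number or letter. The rule uses no measured value, but it was chosen with earlier results of these data known. There were 47 such genes among 49492 genes in the table. Bulk RNA-seq of mouse glioblastoma (GBM) from 2 genetic models was compared. The first was NSCHRas-shp53 (n = 3), in which a lentivirus carrying a short hairpin RNA against *Trp53* and a constitutively active human *HRAS* was injected into the subventricular zone of adult mice, and RNA came from whole tumor tissue. The second was NPCTKO (n = 4), in which Cas9 and guide RNAs against tumor suppressor genes, *Trp53* and *Nf1* among them, were electroporated in utero into neocortical precursors together with an EGFP or DsRed reporter, and RNA came from reporter-positive cells sorted from the tumors. The labels give all 7 samples as C57BL/6, 3 months of age and GBM tissue, and do not say which reporter a sample carried or whether each sample was its own mouse, so p-values measure the spread between these samples. Model and preparation changed together and cannot be told apart. In bulk RNA, fewer cells of a type and less RNA per cell cannot be told apart either.

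Glutamate opens the AMPA, kainate and NMDA channels, which carry excitatory current, and also acts on metabotropic receptors coupled to G proteins. GABA opens the GABA-A chloride channels and acts on the metabotropic GABA-B receptor. Neurons carry most of these subunits, but glia have sets of their own: oligodendrocyte precursor cells (OPCs) and astrocytes express several AMPA, kainate, GABA-A and group I and II metabotropic genes, and glioma cells are known to receive glutamatergic input. From general knowledge of the brain, 9 members were listed as glial-type (*Gria4*, *Grik3*, *Grin2c*, *Grin3a*, *Grm3*, *Grm5*, *Gabra2*, *Gabrb1* and *Gabrg1*), 18 as neuron-type, 7 as retinal or peripheral and 13 as mixed. These lists too were made with earlier results of these data known.

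Levels are given as CPM, counts scaled by library size and TMM factor, which suit one gene across samples. Comparisons between genes use FPKM, which divides by transcript length. The log2 fold change is NSCHRas-shp53 minus NPCTKO with its standard error (SE), and a gene was called at an edgeR adjusted p under 0.05 over all 16091 genes tested. Of the 47 members, 41 had enough counts to be tested. NSCHRas-shp53 tumors had 13 members called higher and 4 called lower, where 7.77% and 5.28% of all genes tested were called in those directions. The median log2 fold change was 1.18 over the 41 members, 27 of them above 0, and -0.10 over all genes. In 19 members every NSCHRas-shp53 sample lay above every NPCTKO sample and in 5 below, against 16.3% and 14.9% of all genes.

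Of 15 neuron-type members tested, 7 rose and 0 fell by edgeR (median log2 fold change 2.70). At an unadjusted p under 0.05 only *Grin3b* was lower among them (-2.05, unadjusted p = 0.0152, adjusted p = 0.082), and DESeq2 called 1 lower. Of the 9 glial-type members, 3 rose (*Gabrb1*, *Grin2c* and *Grm3*) and 2 fell (*Grik3* and *Grin3a*), with a median of 0.52. By class, 4 of 8 metabotropic and 4 of 7 NMDA genes rose, and no kainate gene rose, with 2 of 5 called lower and all 5 values below 0. The difference between these groups was not tested.

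**Figure D1:**
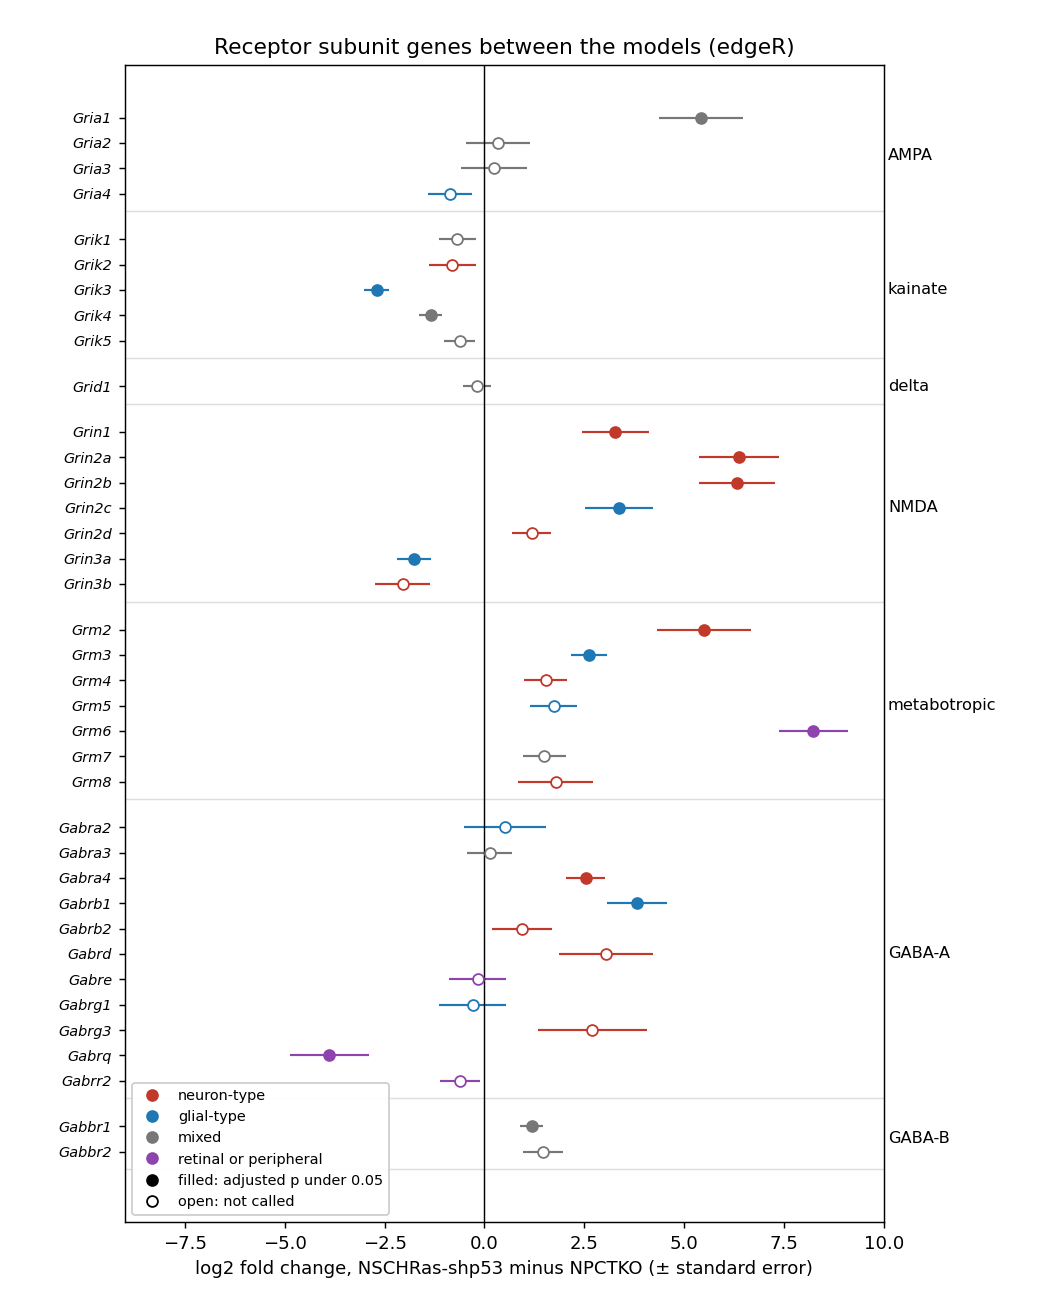
Log2 fold change (NSCHRas-shp53 minus NPCTKO) of 37 tested members, one row per gene grouped by receptor class, with bars of 1 standard error. Colors give the listed cell type and filled points an edgeR adjusted p under 0.05. All 7 metabotropic genes shown lie right of 0 and all 5 kainate genes left of it.

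Libraries had 17529054 to 19840860 counts in NSCHRas-shp53 and 15002873 to 19247326 in NPCTKO, so 3 counts amounted to 0.130 to 0.234 CPM. NPCTKO samples 1 and 2 stood apart from 3 and 4 (Pearson r of log2(CPM + 1) across genes 0.98 for 1 and 2, 0.946 for 3 and 4, and 0.818 to 0.88 between the pairs). Summed markers of tumor-associated macrophages (TAMs) were 17400 and 21500 CPM in NPCTKO 1 and 2, and 403 and 2660 CPM in NPCTKO 3 and 4, although all were sorted. Other cell types moved with the models as well. Neuron markers summed to 707 to 994 CPM in NSCHRas-shp53 and 75.3 to 141 CPM in NPCTKO, with 9 of 11 tested called higher, and astrocyte markers to 1400 to 1680 and 85.3 to 332 CPM, with 5 of 9 called higher. OPC markers summed to 807 to 1410 CPM in NSCHRas-shp53 and 4060 to 5800 CPM in NPCTKO, with 4 of 6 called lower. Mural cell markers summed to 240 to 379 CPM in NSCHRas-shp53 and 17.5 to 30.3 CPM in NPCTKO, with 3 of 5 called higher, *Rgs5* (6.98) and *Pdgfrb* (4.44) among them. Endothelial markers summed to 121 to 436 CPM in NSCHRas-shp53 and 8.86 to 152 CPM in NPCTKO, with 1 of 4 called higher (*Tek*, 2.71). *Nefl*, *Gfap*, *Gpr17*, *C1ql1* and *P2ry12* had 0 counts in every sample because they lie inside other genes, and reads there went to neither. The part of these cell types in the receptor results was not tested.

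**Figure D2:**
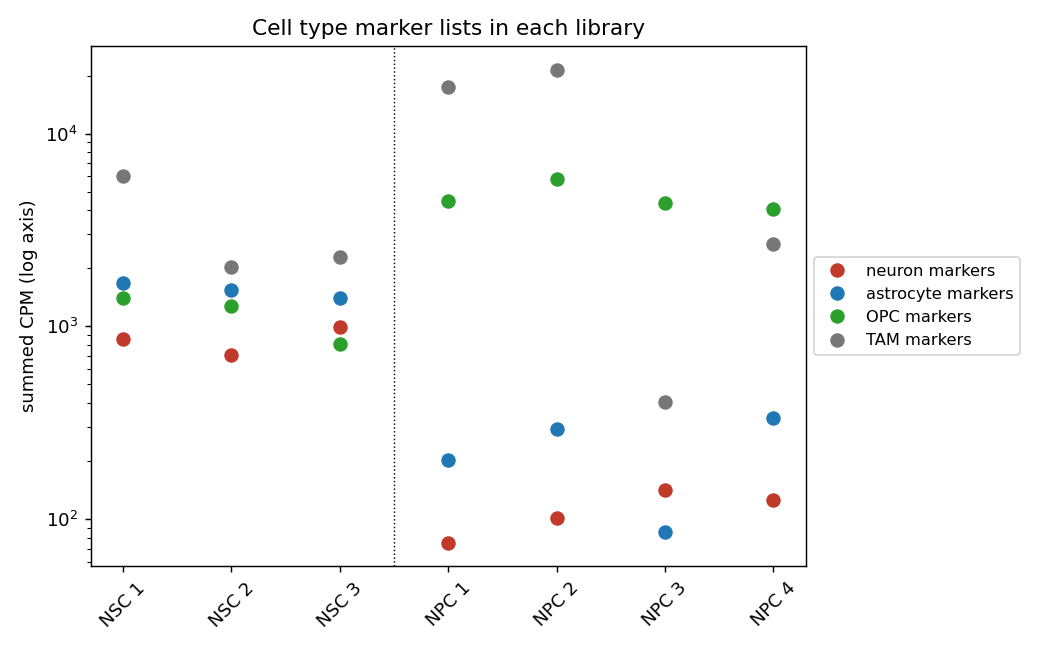
Summed CPM (log axis) of 4 marker lists in each library, NSCHRas-shp53 (NSC) left of NPCTKO (NPC). Neuron and astrocyte sums are higher and OPC sums lower in all 3 NSC samples than in any NPC sample, and TAM sums split NPC 1 and 2 from NPC 3 and 4.

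Promoters of called genes are shown for the member that fell and the member that rose with the smallest adjusted p, *Grik3* and *Grm6*, and for *Gabra4* and *Gabrb1*, neighbors on opposite strands that rose together. Windows run from 250 bases before to 50 bases after the RefSeq start (GRCm38.p6), and capitals mark the GC box GGGCGG or its reverse complement.
Grik3 promoter, chr4:125490446-125490745, plus strand: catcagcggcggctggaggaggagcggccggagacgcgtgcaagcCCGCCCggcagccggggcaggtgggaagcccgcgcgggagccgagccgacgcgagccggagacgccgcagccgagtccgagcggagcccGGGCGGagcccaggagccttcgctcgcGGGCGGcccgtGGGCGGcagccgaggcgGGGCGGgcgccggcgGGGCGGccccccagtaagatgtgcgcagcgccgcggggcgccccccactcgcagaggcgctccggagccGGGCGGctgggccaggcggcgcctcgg
Grm6 promoter, chr11:50850435-50850734, plus strand: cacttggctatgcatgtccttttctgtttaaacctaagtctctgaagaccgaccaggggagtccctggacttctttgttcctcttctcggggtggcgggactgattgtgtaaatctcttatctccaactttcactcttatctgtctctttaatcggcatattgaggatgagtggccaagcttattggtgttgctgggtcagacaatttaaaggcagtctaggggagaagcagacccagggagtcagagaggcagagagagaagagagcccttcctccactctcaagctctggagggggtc
Gabra4 promoter, chr5:71658259-71658558, minus strand: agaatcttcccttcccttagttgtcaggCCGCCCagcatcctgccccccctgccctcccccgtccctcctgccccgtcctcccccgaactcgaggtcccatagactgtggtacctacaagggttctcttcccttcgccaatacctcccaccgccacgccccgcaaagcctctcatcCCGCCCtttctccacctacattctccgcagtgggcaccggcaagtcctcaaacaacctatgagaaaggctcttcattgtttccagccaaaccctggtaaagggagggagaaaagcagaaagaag
Gabrb1 promoter, chr5:71657671-71657970, plus strand: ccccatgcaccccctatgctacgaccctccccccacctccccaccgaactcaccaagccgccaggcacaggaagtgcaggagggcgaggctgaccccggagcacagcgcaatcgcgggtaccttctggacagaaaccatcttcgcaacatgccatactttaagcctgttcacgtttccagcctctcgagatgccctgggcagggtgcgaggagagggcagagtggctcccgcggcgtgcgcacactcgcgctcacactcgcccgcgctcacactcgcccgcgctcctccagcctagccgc
The *Grik3* window was 82.0% G + C and held 7 GC boxes, the *Grm6* window 49.7% with 0, the *Gabra4* window 58.7% with 2 and the *Gabrb1* window 66% with 0. Of the members, 32 of 47 matched a RefSeq window (39 windows, median 59.7% G + C, against 52.7% over all 32851 windows). On either strand, a GC box was in 9 of 12 windows of called members, 19 of 39 member windows and 35.7% of all windows. The AP-1 site TGANTCA, the CRE TGACGTCA and the TATA box TATAAA were in 0 of the 12 windows, against 7.81%, 1.79% and 13.6% of all, and the E-box CAGNTG in 3 against 51.4%. The left part of the RE1 element, TTCAGCACC, was in the *Grm2* window alone among them (0.371% of all windows), and its right part GGACAG was in 4 windows, of *Gabrb1*, *Grin1* and *Grm2* (22.2% of all). Motifs were counted one by one, and a match is a match of letters only.

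Among the AMPA genes, 1 of 4 was called, and the others overlapped between the models. *Gria1*, whose subunit is inserted at synapses during long-term potentiation, was at 81.9, 91.3 and 212 CPM in NSCHRas-shp53 samples, against 0.269, 1.40, 1.15 and 9.07 CPM in NPCTKO samples (log2 fold change 5.42 ± 1.06, edgeR adjusted p = 0.016). Every NSCHRas-shp53 tumor was far above every NPCTKO sample, of which sample 4 was the highest. Without NSCHRas-shp53 sample 2 or 3 its adjusted p was 0.051 or 0.068. *Gria2*, which encodes the subunit that blocks calcium entry, was at 84.9, 136 and 180 CPM in NSCHRas-shp53, against 18.0, 29.5, 231 and 145 CPM in NPCTKO (0.33 ± 0.80, adjusted p = 0.82). The NPCTKO samples spanned the NSCHRas-shp53 range on both sides, samples 1 and 2 below it. Without NPCTKO 1 and 2 the *Gria2* value was -0.46 (adjusted p = 0.40), and without NPCTKO 3 and 4 it was 2.48 (adjusted p = 0.0025). *Gria3* had the same split in NPCTKO (62.5, 89.7 and 78.9 CPM in NSCHRas-shp53, against 10.7, 13.4, 123 and 113 CPM), and so did *Gria4*, an AMPA gene of immature glia (61, 52.3 and 34.5 CPM against 36.9, 43.0, 144 and 137 CPM). Neither was called (adjusted p = 0.88 and 0.32).

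In FPKM, the AMPA genes together summed to 48.0, 50.9 and 81.7 in NSCHRas-shp53 and to 14.5, 18.4, 81.9 and 71.8 in NPCTKO, which overlapped. *Gria1* made up 24.8, 26.7 and 34.9% of that sum in NSCHRas-shp53 and 0.379, 1.43, 0.227 and 1.87% in NPCTKO. The share of *Gria4* was 20.2, 11.8 and 5.47% in NSCHRas-shp53 and 53.3, 45.3, 19.9 and 25.2% in NPCTKO, which overlap between NSCHRas-shp53 1 and NPCTKO 3. *Gria2* held 34.0 to 45.3% in NSCHRas-shp53 and 29.5 to 56.5% in NPCTKO. *Gria1* was a minor AMPA transcript in all 4 NPCTKO samples, with or without high TAM markers.

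**Figure D3:**
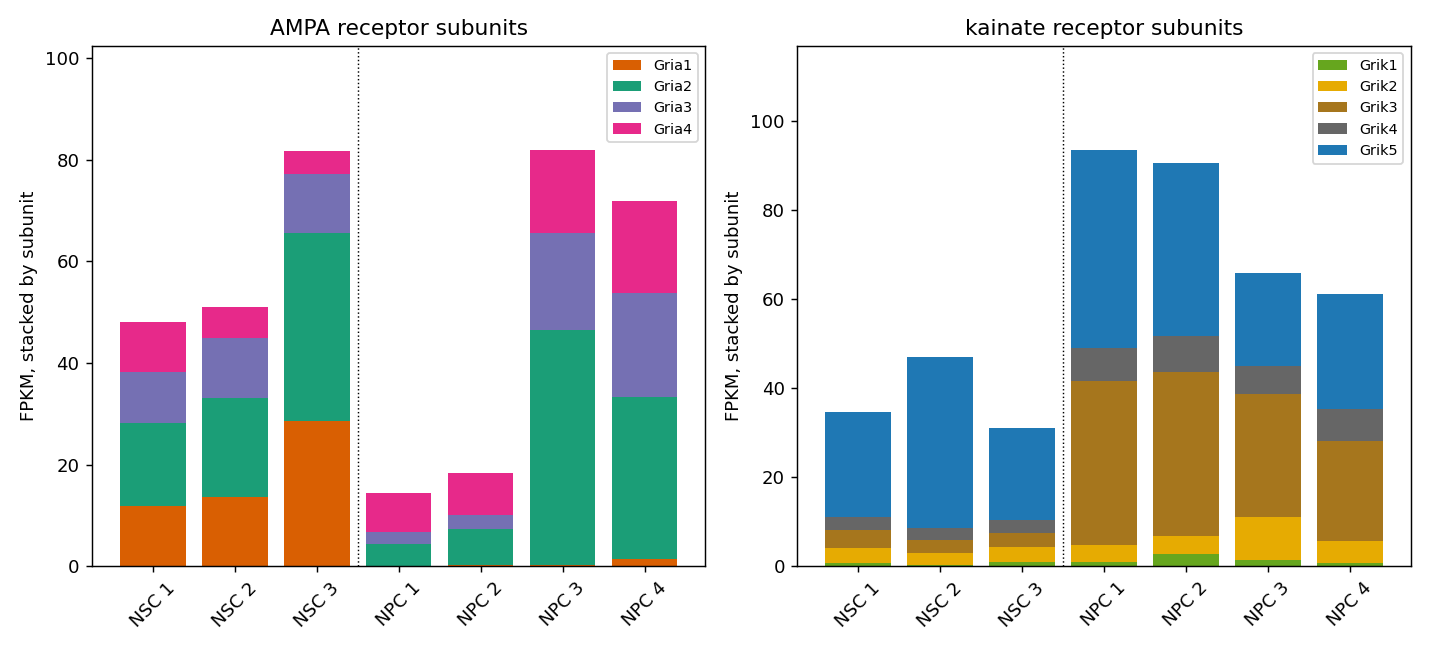
FPKM of the AMPA (left) and kainate (right) subunit genes, stacked, in each library, NSCHRas-shp53 (NSC) left of NPCTKO (NPC). *Gria1* takes 24.8 to 34.9% of the AMPA stack in NSC and at most 1.87% in NPC, and *Grik3* is the thick brown band of the kainate stacks in NPC.

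Kainate receptors were the class with lower values in NSCHRas-shp53. *Grik3*, a channel-forming subunit found in OPCs, was at 35.0, 24.9 and 31.1 CPM in NSCHRas-shp53 and 193, 185, 258 and 152 CPM in NPCTKO (-2.70 ± 0.32, edgeR adjusted p = 0.0037). The groups were well apart, with the highest NSCHRas-shp53 value, 35.0 CPM in sample 1, far below the lowest NPCTKO value, 152 CPM in sample 4. *Grik4*, which needs a partner such as *Grik3* to form a channel, was at 16, 13.4 and 19.0 CPM in NSCHRas-shp53, against 35.2, 34.9, 47.6 and 45.6 CPM in NPCTKO (-1.34 ± 0.29, adjusted p = 0.023). It kept to the lower side in every NSCHRas-shp53 sample, but its adjusted p was 0.090, 0.11 and 0.082 without NSCHRas-shp53 1, 2 and 3. *Grik5*, the other such partner subunit, had the highest mean FPKM of the class and was at 99.5, 148 and 98.9 CPM in NSCHRas-shp53, against 254, 217, 95.3 and 142 CPM in NPCTKO (-0.62 ± 0.39, adjusted p = 0.33). Its high NPCTKO samples were 1 and 2, the reverse of the AMPA genes, and without NPCTKO 3 and 4 it was at -1.04 (adjusted p = 0.012). *Grik1* and *Grik2* were not called (-0.68 and -0.80).

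Summed over the class, kainate FPKM was 34.7, 47.0 and 31.1 in NSCHRas-shp53 and 93.4, 90.6, 65.8 and 61.1 in NPCTKO, without overlap. *Grik3* made up 6.56 to 11.7% of it in NSCHRas-shp53 and 39.4, 40.6, 42.1 and 36.8% in NPCTKO, a share that held across both NPCTKO pairs. *Grik5* made up 68.1, 81.9 and 66.5% in NSCHRas-shp53 and 47.5, 43.0, 31.6 and 42.4% in NPCTKO. OPC markers, whose summed CPM was lower in the same samples, are given above. Among those tested, *Sox10* and *Cspg4* had the lowest log2 fold changes (-2.95 and -3.31). *Olig1* (-2.03) and *Ptprz1* (-1.3) were not called, and *Ptprz1* overlapped between the models.

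NMDA receptors changed in both directions. *Grin1*, the subunit that every NMDA receptor needs, was at 13.6, 6.85 and 27.0 CPM in NSCHRas-shp53, against 1.88, 3.67, 0.625 and 0.363 CPM in NPCTKO (3.28 ± 0.83, edgeR adjusted p = 0.037). *Grin2a*, the subunit of mature synapses, was at 15.3, 9.28 and 50.9 CPM against 0.0673, 0.234, 0.781 and 0.0604 CPM (6.37 ± 1.00, adjusted p = 0.0081). *Grin2b*, the subunit of the developing brain, was at 26.1, 14.8 and 89.3 CPM in NSCHRas-shp53, against 0.202, 0.156, 0.417 and 1.33 CPM in NPCTKO (6.32 ± 0.94, adjusted p = 0.0070). In these 3 genes NSCHRas-shp53 sample 2 was the lowest and sample 3 the highest of its group. The summed CPM of the neuron markers had the same order (854, 707 and 994), whereas their summed FPKM was lowest in sample 1 (374, 455 and 537). Taken singly in CPM, *Syn1*, *Syp* and *Rbfox1* had that order. *Rbfox3*, *Snap25*, *Syt1* and *Celf4* were highest in sample 1, and *Stmn2*, *Nefm*, *Myt1l* and *Thy1* were lowest in it. In *Grin2a* no NPCTKO sample was above 0.781 CPM, and in *Grin2b* sample 4 was the highest of them. The counts of both span long introns. In FPKM, over exons, *Grin2a* was at 0.314, 0.0662 and 2.24 in NSCHRas-shp53 and 0, 0.0366, 0.0261 and 0 in NPCTKO, and limma on FPKM did not call *Grin2a* (adjusted p = 0.20) or *Grin2b* (adjusted p = 0.16). The *Grin1* call was lost without NPCTKO 1 or 4 (adjusted p = 0.071 and 0.055) and without NSCHRas-shp53 1, 2 or 3 (0.082, 0.070 and 0.16).

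*Grin2c*, an NMDA subunit of cerebellum and astrocytes, rose, at 21.2, 5.68 and 15.4 CPM in NSCHRas-shp53, against 0.673, 2.11, 0.156 and 2.54 CPM in NPCTKO (3.37 ± 0.86, edgeR adjusted p = 0.039). *Grin3a*, a glycine-binding subunit that lowers calcium entry and is found in OPCs, fell, at 14.3, 7.41 and 11.5 CPM in NSCHRas-shp53, against 35.3, 60.8, 25.1 and 29.3 CPM in NPCTKO (-1.76 ± 0.42, adjusted p = 0.032). Neither pair of groups overlapped. Both calls were lost without any 1 of 5 samples, and also without NPCTKO 1 and 2 together. The log2 fold change stayed at 2.98 to 4.26 for *Grin2c* and at -2.13 to -1.26 for *Grin3a* over the alternatives fitted to counts. Without NPCTKO 1 or 2 the adjusted p was 0.081 or 0.059 for *Grin2c* and 0.058 or 0.065 for *Grin3a*. Without NSCHRas-shp53 1, 2 or 3 it was 0.12, 0.072 or 0.13 for *Grin2c* and 0.070, 0.13 or 0.13 for *Grin3a*. *Grin2d* and *Grin3b* had values of 1.18 and -2.05 and were not called (adjusted p = 0.15 and 0.082), although neither overlapped between the models.

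By FPKM, the most abundant NMDA transcript differed between the models. *Grin1* made up 56.7, 63.5 and 54.6% of the class sum in NSCHRas-shp53 and 17.7, 20.7, 10.8 and 4.61% in NPCTKO. The row that carries *Grin3a* together with *Ppp3r2*, a gene within its span, made up 8.32, 6.93 and 5.15% in NSCHRas-shp53 and 63.4, 64.8, 66.4 and 68.1% in NPCTKO. That share was nearly the same in all 4 NPCTKO samples. By raw counts, which include introns, *Grin1* made up 14.3, 13.5 and 13.4% in NSCHRas-shp53 and 4.14, 4.96, 2.07 and 0.998% in NPCTKO, and *Grin2b* 27.4, 29.1 and 44.4% in NSCHRas-shp53 and 0.444, 0.211, 1.38 and 3.66% in NPCTKO. *Grin1* thus led the class in NSCHRas-shp53 by FPKM and not by counts, while *Grin3a* led in NPCTKO by both (77.5 to 83.0% of counts). Another gene covers 27.5% of the *Grin1* span, and counts leave out reads there. The class sum itself was 14.6 to 26.0 FPKM in NSCHRas-shp53 and 3.82 to 13.8 FPKM in NPCTKO.

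Metabotropic glutamate receptors were higher in NSCHRas-shp53 where they were called. *Grm6*, the receptor of retinal ON bipolar cells, was at 7.05, 25.6 and 31.7 CPM in NSCHRas-shp53, against 0.0673, 0.156, 0.0521 and 0 CPM in NPCTKO (8.23 ± 0.87, edgeR adjusted p = 0.0028). Its 1366 counts in the 3 NSCHRas-shp53 samples stood against 4 counts in the 4 NPCTKO samples, a ratio of CPM of 355 (95% exact interval 138 to 1300, counting error only), and FPKM over exons was 1.48, 4.65 and 6.35 against 0.0146, 0.05, 0.0140 and 0. NSCHRas-shp53 sample 1 was the lowest of its group. *Grm2*, a presynaptic autoreceptor, was at 6.78, 0.761 and 6.57 CPM in NSCHRas-shp53, against 0, 0.312, 0.104 and 0 CPM in NPCTKO (5.49 ± 1.17, adjusted p = 0.021). For *Grm2*, 291 counts came from NSCHRas-shp53 and 6 from NPCTKO (ratio 50.4, 95% exact interval 22.9 to 138, counting error only and not the spread between samples). NSCHRas-shp53 2 was close to the NPCTKO range, and the adjusted p was 0.066 and 0.089 without NSCHRas-shp53 1 and 3.

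*Grm3*, the group II receptor of astrocytes, was at 26.3, 29.8 and 15.9 CPM in NSCHRas-shp53, against 2.15, 3.04, 4.64 and 5.68 CPM in NPCTKO (2.62 ± 0.45, edgeR adjusted p = 0.010; 0.051 without NSCHRas-shp53 2). *Grm5*, a group I receptor listed here as glial-type, had the highest mean FPKM of the class and was at 86.3, 75.2 and 65.0 CPM in NSCHRas-shp53, against 6.26, 15.3, 21.8 and 47.8 CPM in NPCTKO (1.73 ± 0.58, adjusted p = 0.087). The groups did not overlap, but NPCTKO sample 4 came close, and without it *Grm5* was at 2.38 (adjusted p = 0.025). *Grm4*, *Grm7* and *Grm8*, presynaptic group III receptors, had values of 1.53, 1.5 and 1.78 and were not called. Class sums in FPKM were 25.3, 22.3 and 26.7 in NSCHRas-shp53 and 3.66, 5.04, 6.21 and 8.20 in NPCTKO.

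**Figure D4:**
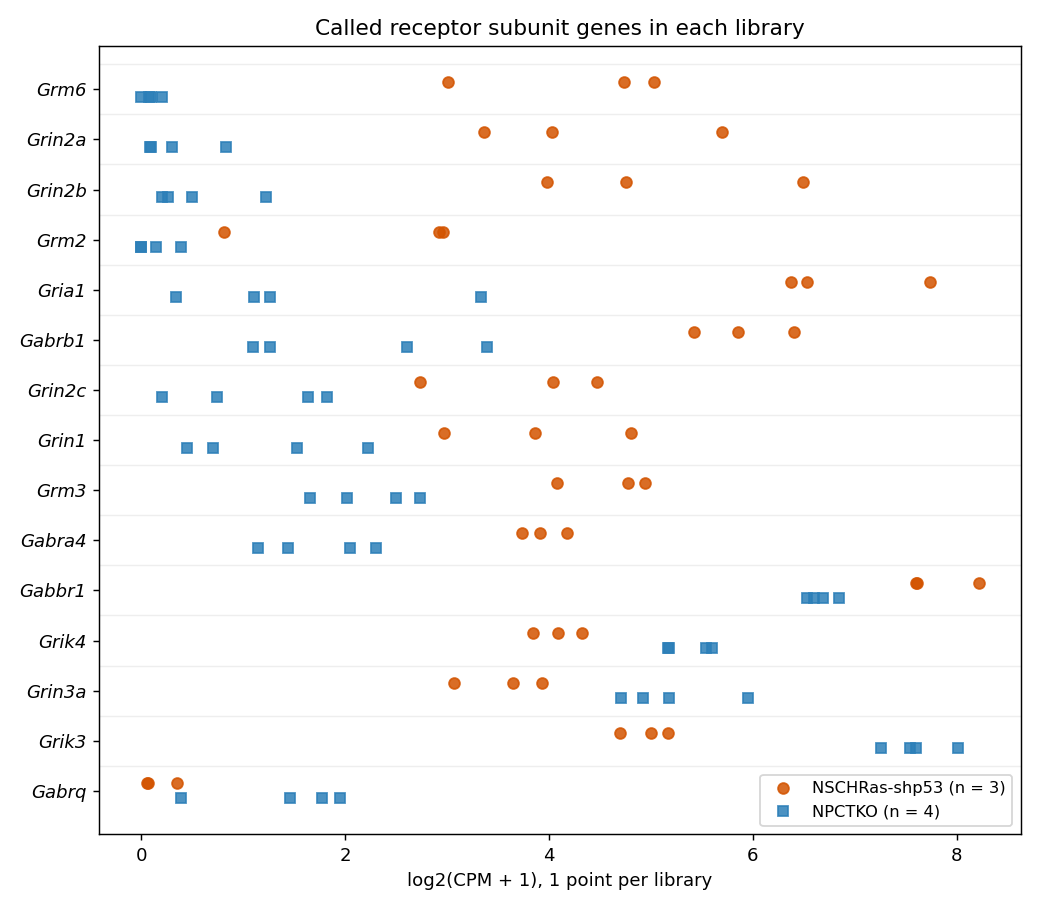
Log2(CPM + 1) of 15 called members in each library, orange circles for NSCHRas-shp53 (n = 3) and blue squares for NPCTKO (n = 4), ordered by fold change. The groups do not overlap in any of the 15 genes, with *Grm2* and *Gabrq* the closest.

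GABA-A subunit genes lie in clusters, each with alpha, beta and gamma or related genes, and the called genes were few within each. In the cluster on chromosome 5 (mm10, 70751047 to 72149037), *Gabrb1*, a beta subunit also expressed by astrocytes, was at 41.9, 56.8 and 83.4 CPM in NSCHRas-shp53, against 1.14, 1.40, 5.11 and 9.49 CPM in NPCTKO (3.82 ± 0.74, edgeR adjusted p = 0.016). *Gabra4*, an alpha subunit of extrasynaptic receptors, was at 14.1, 12.3 and 17.1 CPM against 1.21, 1.72, 3.13 and 3.93 CPM (2.53 ± 0.49, adjusted p = 0.015). Both were above NPCTKO in every NSCHRas-shp53 sample. Their adjusted p was 0.057 and 0.054 without NSCHRas-shp53 2, and 0.070 and 0.075 without NSCHRas-shp53 3. The spans of the pair overlap by 196 bases, and the labels name a non-directional kit, so reads there carry no strand. Next to them, *Gabra2* and *Gabrg1*, both listed as glial-type, were at 0.52 and -0.29 and not called. *Gabrg1* was at 8.0 to 15.6 CPM in NSCHRas-shp53, against 2.62 and 3.28 CPM in NPCTKO samples 1 and 2 and 22.8 and 30.5 CPM in samples 3 and 4, which lay on both sides of it.

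In the cluster on chromosome 11, *Gabrb2* was at 0.94 and not called (edgeR adjusted p = 0.43), and *Gabra6*, a cerebellar granule cell gene, had 0 counts in all 7 libraries, which allows up to 0.130 to 0.234 CPM per library.

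In the cluster on chromosome 7, *Gabrg3* was at 28.1, 51.6 and 42.1 CPM in NSCHRas-shp53, against 0.0673, 1.56, 0.573 and 22.7 CPM in NPCTKO (2.70 ± 1.37, edgeR adjusted p = 0.22), with sample 4 the highest NPCTKO sample, close to NSCHRas-shp53 1. Limma on FPKM called it (log2(FPKM + 1) difference 2.33 ± 0.49, adjusted p = 0.018). *Gabra5*, with 90.5% of its span inside other genes, was read in FPKM only, at 0.83, 0.82 and 4.29 in NSCHRas-shp53 and 0, 0.285, 0.0229 and 0.229 in NPCTKO (limma adjusted p = 0.062 at a pseudocount of 1 and 0.033 at a pseudocount of 0.1, where the log2 difference was 2.97 ± 0.75).

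On the X chromosome, *Gabrq*, the theta subunit, was called lower, at 0.273, 0.0507 and 0.0433 CPM in NSCHRas-shp53, against 1.75, 0.312, 2.87 and 2.42 CPM in NPCTKO (-3.88 ± 0.99, edgeR adjusted p = 0.038). It rested on few counts, with NPCTKO 2 just above NSCHRas-shp53 1, and its adjusted p was 0.056, 0.15 and 0.17 without NSCHRas-shp53 1, 2 and 3. In FPKM the groups overlapped, with 0.107 in NSCHRas-shp53 1 and 0.0782 in NPCTKO 2. The *Gabrq* call was lost in 8 of 13 alternatives, among them limma on FPKM, the fit without TMM and the replicate block. Its neighbors *Gabra3* and *Gabre* were at 0.13 and -0.17 and not called. *Gabrr1*, a rho subunit best known from retina, was under the filter with 0, 0 and 1 counts in NSCHRas-shp53 and 29, 20, 2 and 4 counts in NPCTKO, the higher values in the TAM-rich samples. *Gabrp* had 1 count in all and *Gabrr3* had 0. *Gabrd*, the delta subunit of tonic inhibition, was at 3.04 with an adjusted p of 0.13, and *Gabrr2* at -0.60.

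**Figure D5:**
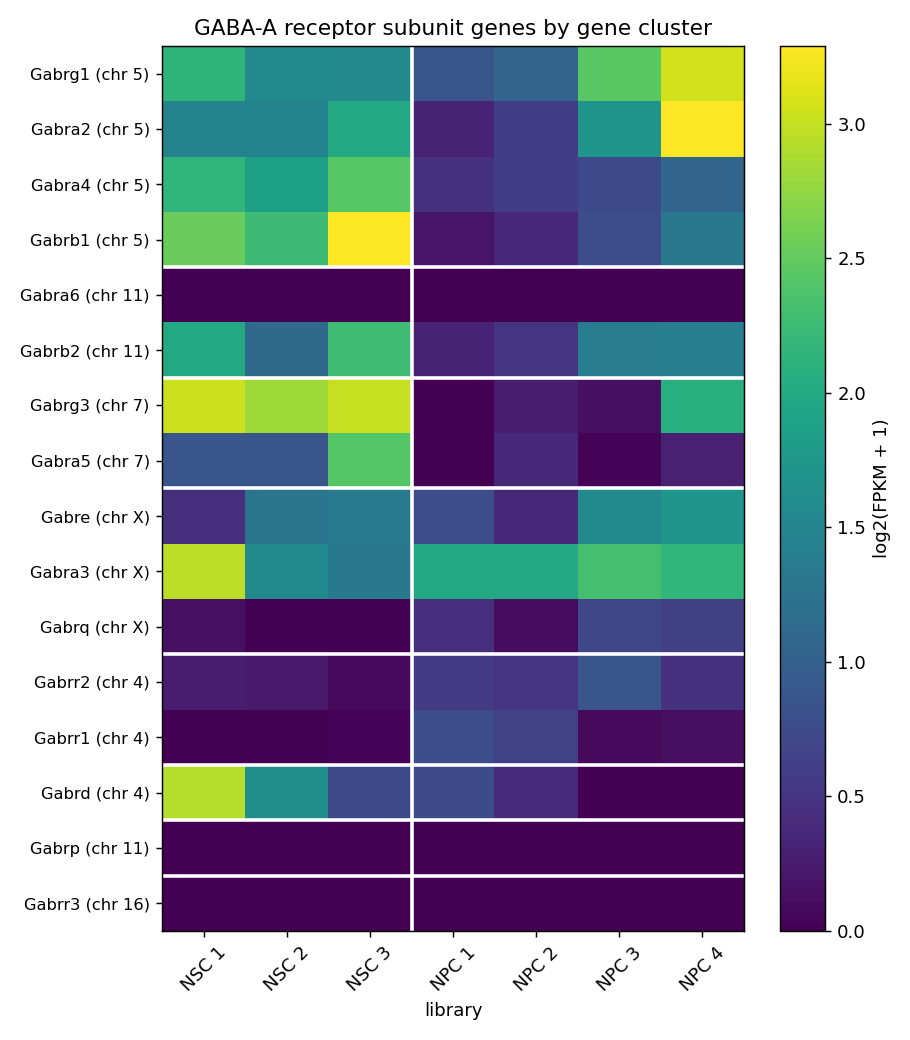
Log2(FPKM + 1) of 16 GABA-A genes in each library, NSCHRas-shp53 (NSC) left of NPCTKO (NPC), in map order, with white lines between gene clusters. *Gabra4* and *Gabrb1* are brighter in all 3 NSC samples than in NPC, and *Gabrg1* and *Gabra2* are brightest in NPC 4.

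Both genes of the GABA-B receptor, which signals only as a heterodimer, had values above 0. *Gabbr1* was at 193, 296 and 195 CPM in NSCHRas-shp53, against 102, 96.3, 114 and 91.5 CPM in NPCTKO (1.18 ± 0.28, edgeR adjusted p = 0.030). *Gabbr2* was at 32.0, 8.83 and 28.1 CPM against 7.60, 12.9, 5.89 and 7.13 CPM (1.46 ± 0.50, adjusted p = 0.092), and NSCHRas-shp53 2 lay inside the NPCTKO range. In FPKM *Gabbr1* was the more abundant partner in every library, at 32.6 to 49.2 in NSCHRas-shp53 and 12.9 to 16.9 in NPCTKO, where *Gabbr2* was at 1.43 to 4.93 and 0.720 to 1.62. The *Gabbr1* call was lost without NPCTKO 1, 2 or 4 (adjusted p = 0.063, 0.068 and 0.058) and without NSCHRas-shp53 1, 2 or 3 (0.060, 0.13 and 0.088). The delta receptor gene *Grid1*, whose product binds cerebellins at synapses, was at 24.4, 30.9 and 31.8 CPM in NSCHRas-shp53, against 18.9, 31.7, 46.7 and 34.5 CPM in NPCTKO (-0.18 ± 0.35, adjusted p = 0.77). The value of *Grid1* was 0.03 without NPCTKO 3.

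The neuron-type members that rose were set beside the neuron markers, since both moved with the model. The 11 tested neuron markers had log2 fold changes of 1.42 (*Syp*) to 4.96 (*Stmn2*), with a median of 2.94. The median of the 15 neuron-type members, 2.70, lay between that and the 2.58 of the astrocyte markers. The medians were 4.30 for mural, 1.70 for endothelial, 0.20 for T cell, -0.29 for oligodendrocyte, -1.65 for TAM and -2.08 for OPC markers. A rise of this size was thus not particular to neuron markers. By counts, 5 members lay above the highest tested neuron marker: the neuron-type *Grin2a*, *Grin2b* and *Grm2*, *Gria1*, listed as mixed, and *Grm6*, listed as retinal or peripheral. Markers of other cell types exceeded it too: *Aqp4* (6.36) and *Gjb6* (6.53) of astrocytes and *Rgs5* (6.98) of mural cells. The neuron marker *Nefl* could not be tested by counts. Its FPKM was 29.2, 135 and 139 in NSCHRas-shp53 and 0.082, 1.96, 4.39 and 3.3 in NPCTKO. Within NSCHRas-shp53, 6 of 15 neuron-type and 0 of 9 glial-type members had sample 2 lowest and sample 3 highest, against 13.0% of all genes tested. *Grin1*, *Grin2a* and *Grin2b*, in which this order was first described above, are among the 6, so the count cannot test a difference between the lists. The neuron markers had this order when summed in CPM but not when summed in FPKM, and most of them did not have it singly. Within NPCTKO, samples 1 and 2 were both below 3 and 4 in 22 of 41 members and both above in 8, against 36.3% and 37.9% of all genes. The first pattern held for 10 of 13 GABA-A and 3 of 4 AMPA genes, and for 1 of 7 NMDA genes.

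Counts of called members depended on which samples were compared. Without NPCTKO 1 and 2, the TAM-rich samples, 13 members were higher and 4 lower, the same totals as with all 7 libraries (background 8.95% and 7.4%). The genes were not the same, since *Grin2c* and *Grin3a* lost their calls in that fit. Without NPCTKO 3 and 4, 25 were higher and 6 lower, where 27.9% and 26% of all genes were called, so the background rose as well. Without NSCHRas-shp53 2 there were 6 higher and 1 lower (background 2.76% and 0.86%), and without NSCHRas-shp53 3 also 6 and 1 (2.51% and 0.751%). Glial-type members called higher were then 0 and 1, against 3 with all libraries, and neuron-type members were 4 without NSCHRas-shp53 3, against 7. *Grik3* and *Grm6* were called under each alternative in which they were tested.

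Genes that supply, anchor or modulate the receptors were read from a list of 79, none of them a subunit. Of 76 tested, 20 were higher and 2 lower in NSCHRas-shp53 (median log2 fold change 0.77). Over all genes tested, 7.77% were called higher and 5.28% lower, and the counts for each list below are to be read beside these shares. Among 16 transporters tested, 3 rose. *Slc1a2*, the main astrocyte glutamate transporter, was at 921, 516 and 1010 CPM in NSCHRas-shp53, against 11.2, 26.8, 22.0 and 63.5 CPM in NPCTKO (4.72 ± 0.63, edgeR adjusted p = 0.0051). *Slc1a3*, the other astrocyte transporter, was at 2.66 ± 0.46 (adjusted p = 0.011), and *Slc17a7*, which loads glutamate into synaptic vesicles, at 4.54 ± 1.18 (adjusted p = 0.040). The GABA-synthesizing enzymes *Gad1* and *Gad2* rose by 2.85 ± 0.59 and 4.57 ± 0.98 (adjusted p = 0.019 and 0.021), and so did *Abat*, which breaks GABA down, by 1.78 ± 0.28 (adjusted p = 0.0082). *Gad2* was at 7.27, 63.4 and 16.7 CPM in NSCHRas-shp53, against 0.202, 0.702, 2.81 and 1.09 CPM in NPCTKO, with sample 2 the highest of its group, unlike *Grin2a* and *Grin2b*. The calls of *Slc17a7*, *Gad1* and *Gad2* were lost without NSCHRas-shp53 2 or 3, and those of *Slc17a7* and *Gad2* also without NPCTKO 2, with a largest adjusted p of 0.13, 0.084 and 0.094. The *Slc17a7* call was lost as well without NPCTKO 1 or 4 or NSCHRas-shp53 1.

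AMPA auxiliary subunits split by gene. *Cacng3*, a neuronal TARP, was at 11.4, 22.4 and 31.4 CPM in NSCHRas-shp53, against 0.0673, 0.234, 0.417 and 0.363 CPM in NPCTKO (6.27 ± 0.65, edgeR adjusted p = 0.0028), and *Cacng2*, stargazin, was at 6.19 ± 0.79 (adjusted p = 0.0045). *Cacng4*, a TARP of glial precursors, was at 55.8, 46.9 and 31.4 CPM in NSCHRas-shp53, against 282, 289, 202 and 228 CPM in NPCTKO (-2.48 ± 0.33, adjusted p = 0.0051). All 3 genes were without overlap, *Cacng4* in the direction of *Grik3* and *Grin3a* and the others in that of *Gria1*. *Cnih2*, which slows AMPA channel closing, rose by 2.70 ± 0.47 (adjusted p = 0.011). On the GABA side, *Slc12a5*, the chloride exporter of mature neurons, was at 63.7, 35.7 and 61.5 CPM in NSCHRas-shp53, against 6.26, 6.32, 5.89 and 4.96 CPM in NPCTKO (3.19 ± 0.32, adjusted p = 0.0027). The importer *Slc12a2* was at 0.72 and not called (adjusted p = 0.30). *Kctd12* and *Kctd16*, auxiliary subunits of GABA-B receptors, were called higher by counts, at 1.83 ± 0.38 and 3.08 ± 0.70 (adjusted p = 0.020 and 0.026). Other genes cover 72.5% of the *Kctd12* span, and its FPKM overlapped, at 93.2, 20.2 and 49.6 in NSCHRas-shp53 and 46.2, 62.6, 14.1 and 21.6 in NPCTKO. Among 20 postsynaptic scaffold and partner genes tested, 7 rose, with the smallest p in *Nptx1* (2.78 ± 0.35, adjusted p = 0.0044) and *Nptxr* (2.82 ± 0.40, adjusted p = 0.0064), which cluster AMPA receptors (82.0% of the *Nptxr* span lies inside another gene), and 1 fell, *Pick1* (-1.45 ± 0.37, adjusted p = 0.039). *Kctd12*, *Kctd16* and *Pick1* lost their calls without any of the 3 NSCHRas-shp53 samples in turn, *Kctd16* and *Pick1* also without NPCTKO 1 and *Pick1* without NPCTKO 2, with a largest adjusted p of 0.069, 0.11 and 0.17. The RNA-editing enzymes *Adarb1*, which edits *Gria2*, and *Adar* were at 1.19 and -0.88 and were not called.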

How the data were processed

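RNA from 7 GBM samples (3 NSCHRas-shp53, 4 NPCTKO) was sequenced as poly(A) libraries. For the deposited raw counts per gene, the authors trimmed reads with Cutadapt (1.16 in the submitters' processing notes) and aligned them to mm10 with TopHat 2.1.1, and how reads were assigned to genes was not stated in the sources used here. Counts cover the whole gene span, introns included, and reads in overlaps of genes are left out, so genes that overlap others read low. The deposited FPKM values came from Cufflinks 2.2.1, run by the authors, in 28538 rows, 3767 without a name. A row can carry several names, and the 2 rows of *Grin2d* were summed.

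Counts were compared with edgeR 4.0.16 (quasi-likelihood test, TMM, filterByExpr, Benjamini-Hochberg adjustment over all genes, 0.05) in R 4.3.3, on all samples without covariates. The script was tested on simulated data. DESeq2 1.42.0 and limma 3.58.1 on log2(FPKM + 1) were among the alternatives. Fold changes on the FPKM scale understate low genes. Full values are given for each called member and for the member of each class with the highest mean FPKM, and for up to 4 called genes with the smallest p of each list of partner genes. Members and lists were chosen with earlier results of these data known. RefSeq promoters were matched by symbol. Some genes that met these rules are counted but not reported here by name or drawn.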

Additional observations from a re-analysis of the deposited data

How the results depend on the processing

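With TMM replaced by DESeq2 size factors, no count of calls moved by over 1.5 times. Without TMM, 2 members and 1 partner gene (of the 79 listed) were lower, with 3.36% of all genes called lower. DESeq2 called 21 members higher, 11 of them neuron-type, with 1 neuron-type member and 5 partner genes lower, where it called 2179 of 19690 genes higher and 1852 lower. A minimum of 10 CPM in 3 libraries left 7 members higher (6.56% of all genes), 3 of them neuron-type, and 1 partner gene lower (3.93%). At pseudocount 1, limma on FPKM had 2 members lower, 1 of them glial-type, with or without the filter (5.43% or 4.51% of all genes). With the filter, 4 or 5 partner genes were lower at pseudocount 1 or 0.1 (5.43% or 5.93% of all genes). Leaving out each replicate in turn gave 6 to 14 members higher and 1 to 4 lower. Neuron-type members were 4 to 7 higher and 0 to 1 lower, and glial-type members 0 to 4 higher and 1 to 2 lower. Partner genes were 11 to 24 higher and 1 to 3 lower. The share of all genes called moved as well over these fits, from 2.51% to 8.75% higher and from 0.751% to 7.62% lower. 2 alternatives were chosen after seeing the data. Without NPCTKO 1 and 2, *Gria2* reversed to -0.46. Without NPCTKO 3 and 4, 25 members were higher (12 neuron-type, 6 glial-type), and 1 neuron-type member was lower. In that fit 39 partner genes were higher and 10 lower, with 27.9% and 26% of all genes called, and *Grid1* reversed to 0.19. Leaving out each replicate in turn, *Grid1* ran from -0.35 to 0.03, reversed only without NPCTKO replicate 3. The cause of these shifts was not tested.

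Replicate numbers did not pair the samples (correlation of deviations 0.279, -0.193 and 0.193 for numbers 1, 2 and 3), and no NSCHRas-shp53 sample correlated best with its own number. With the replicate number as a block, 12 members were higher and 1 lower (1 glial-type; 4.46% and 2.01% of all genes), and 13 partner genes were higher and 1 lower.

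Of the fold changes of 22 members (those called and the one with the highest mean FPKM of each class) recomputed under the alternatives, 311 kept their direction and side of the threshold, 58 lost the call, 13 gained it and 3 reversed. Among the other members not called, *Gria3*, *Gria4*, *Gabra2*, *Gabra3*, *Gabre*, *Gabrg1* and *Grik2* also changed sign in at least 1 alternative, *Gabrg1* with values of -1.10 to 2.03. Of 46 AMPA and GABA-A class shares, 9, all of GABA-A, moved beyond the spread between samples with raw counts in place of FPKM. NMDA shares shifted too, *Grin1* in NSCHRas-shp53 averaging 58.3% of FPKM and 13.7% of counts, and *Grin2b* 4.76% and 33.6%. *Grm6*, *Grm2*, *Gabrq* and *Grin2a* rest on values near the counting floor in 1 model.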
